A study of Mus musculus with 2 samples.

Results

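Heat shock chaperones bind unfolded or partly folded proteins and keep them from clumping while they fold, move to another compartment or are handed on for degradation. Some are made in every growing cell, and others are made mainly after heat, oxidants or unfolded protein release heat shock factors onto paired heat shock elements upstream of the genes. Tumour cells, pancreatic ones included, are known for leaning on the constitutive members. The genes described here are 10 of the 33696 features of the matrix, chosen by symbol. They are the cytosolic HSP90 genes Hsp90ab1 (constitutive, ENSMUSG00000023944, chromosome 17) and Hsp90aa1 (partly inducible, ENSMUSG00000021270, chromosome 12). The HSP70 genes are Hspa8 (constitutive, ENSMUSG00000015656, chromosome 9) and the stress-inducible, intronless pair Hspa1a (ENSMUSG00000091971) and Hspa1b (ENSMUSG00000090877), both on chromosome 17. Hspd1 (ENSMUSG00000025980) and Hspe1 (ENSMUSG00000073676), neighbours on chromosome 1, encode the barrel and the lid of the mitochondrial chaperonin. Hsph1 (ENSMUSG00000029657, chromosome 5) is the HSP110 nucleotide exchange factor of HSP70, Dnajb1 (ENSMUSG00000005483, chromosome 8) is a J-domain protein that delivers clients to HSP70, and Hspb1 (ENSMUSG00000004951, chromosome 5) is a small heat shock protein that holds unfolded protein without ATP. All 10 had at least 1 UMI, so none was lost to a filter.

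The cells were KPCY 6419c5, a mouse pancreatic ductal adenocarcinoma line, carrying the BASELINE lineage recorder and transfected with Cas12a-ABE, an adenine base editor built on Cas12a. Clones 76 and 84, each grown from 1 sorted cell, were mixed in equal numbers after 19 days of editing and sequenced as 1 droplet library. No untreated or heat-treated sample was compared here, and a further pool, made of clones 1, 32, 33, 52 and 76, was not used here. This library held 22178 distinct barcodes and 116505698 unique molecular identifiers (UMIs, each standing for 1 captured transcript), and 21361 barcodes passed a filter (2000 or more UMIs from 1000 or more genes, with no more than 15% of them mitochondrial).

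A and B cells were set apart by marker genes. The A cells had at least 2 UMIs, and at least 3 times the other list, of Pde10a, Plcb1, Galnt18, Arhgap15 and Ceacam1. The B cells met the same terms for S100a7a, Rgs20, Hs6st2, Ccbe1, Ctse and Mal. There were 7816 A cells (36.6%), 8936 B cells (41.8%) and 4609 barcodes in neither. Of these, 3966 had under 2 UMIs of both lists and 643 had a mixture. At the edge of the rule, 1650 A cells and 1197 B cells had just 2 UMIs of their own list, and 1535 and 950 barcodes left out had 1 UMI and none of the other list. No file assigned cells to clones, so A and B are not called clones. A cells had a median of 4699.5 UMIs and 3.19% mitochondrial UMIs, and B cells 5440.5 and 1.89%. Epithelial keratin and adhesion genes summed to 2737 UMIs per 1000000 (CPM) in A and 7578 in B, led by the keratins, while Epcam ran the other way (31.8 and 3.16). Col1a2, Dcn and Lum (fibroblast), Ins1, Gcg and Sst (endocrine) and Kdr and Emcn (endothelial) were at 0 UMIs in both. The endothelial list of 5 genes, 2 of them at 0, summed to 33.5 CPM in A and 8.55 in B, of which Egfl7 alone gave 32.6 and 7.75, while Cdh5 ran the other way (0.298 and 0.606). The acinar list (4 of 6 at 0) summed to 13.7 and 4.38 CPM, and the immune list (0 of 6 at 0) to 3.45 and 0.947. Higher in B were the erythroid list (2 of 4 at 0; 0.497 and 3.30 CPM) and the fibroblast list (3 of 6 at 0; 0.944 and 1.48 CPM, the rise from Pdpn alone, with 4 and 35 UMIs, as Pdgfra and Col1a1 were near equal). The endocrine list (3 of 5 at 0) had 2 UMIs in A and 4 in B. The part of these levels, of depth and of mitochondrial share in the differences below was not tested, except where a value is given. With 1 library and cells that are not replicates, no p-value is given. All intervals are 95% and cover counting error only.

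The upstream DNA of Hspa1a, Hspa1b and Hspb1 is shown first, because these genes stand apart in the counts below. The inducible members Dnajb1 and Hsph1 do not stand apart there. The 250 bases upstream of the annotated start come from RefSeq on GRCm38.p6, which matched 7 of the 10 genes (Hsp90ab1, Hsp90aa1 and Hspa8 were not matched) with 10 start windows. Capitals mark an inverted pair of heat shock units, GAANNTTC or TTCNNGAA, each of which reads the same on both strands. Hspa1a (chr17:34972157-34972406, minus strand) and Hspa1b (chr17:34959239-34959488, minus strand) are set beside Hspb1 (chr5:135887669-135887918, plus strand).
Hspa1a: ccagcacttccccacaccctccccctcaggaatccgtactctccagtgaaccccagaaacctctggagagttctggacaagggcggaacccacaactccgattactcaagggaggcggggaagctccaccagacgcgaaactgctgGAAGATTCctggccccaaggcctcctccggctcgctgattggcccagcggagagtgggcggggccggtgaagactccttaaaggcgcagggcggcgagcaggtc
Hspa1b: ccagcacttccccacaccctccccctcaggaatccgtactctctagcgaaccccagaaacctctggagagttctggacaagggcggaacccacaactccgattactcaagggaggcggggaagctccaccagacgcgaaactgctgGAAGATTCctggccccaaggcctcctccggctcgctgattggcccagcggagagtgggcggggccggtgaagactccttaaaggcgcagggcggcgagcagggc
Hspb1: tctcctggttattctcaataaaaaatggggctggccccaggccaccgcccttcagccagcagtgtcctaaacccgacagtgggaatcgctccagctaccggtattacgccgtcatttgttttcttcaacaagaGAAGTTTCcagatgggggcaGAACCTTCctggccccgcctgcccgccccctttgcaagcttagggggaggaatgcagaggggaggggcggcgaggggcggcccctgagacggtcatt

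The Hspa1a and Hspa1b windows differed at 3 of 250 positions (98.8% identical). Counted from 1 at the 5′ end, with the Hspa1a base first, the differences were C44T, T47C and T249G. None of these lay in the heat shock pair, which began 104 bases upstream of the start in both, or in the CCAAT box (CCAAT, or ATTGG on the other strand), which began 67 bases upstream. Hspb1 had 2 pairs, beginning 117 and 97 bases upstream, and no CCAAT box.

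Hspd1 and Hspe1 are transcribed away from each other. The 107 bases between the first exons of their first-named GENCODE M21 transcripts (chr1:55088025-55088131, same build, plus strand, reading towards Hspe1) are shown because both chaperonin genes share them. They lie inside the RefSeq windows of Hspe1 and of 1 of 2 Hspd1 starts, and downstream of the other Hspd1 start.
Hspd1 and Hspe1: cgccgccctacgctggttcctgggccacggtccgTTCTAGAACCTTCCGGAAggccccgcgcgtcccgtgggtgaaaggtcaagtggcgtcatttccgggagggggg

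Those bases held 4 units in 1 run of 18 bases, giving 3 overlapping pairs. Of the 7 matched genes, 6 had a pair in a window: Hspa1a, Hspa1b, Hspb1, Hsph1, Hspd1 and Hspe1. Over all 32851 RefSeq windows of the same length, 12.8% held a pair. This share and those below are per window, while genes are counted with a match in any window. The 6 are not separate, as Hspd1 and Hspe1 share a stretch and the Hspa1a and Hspa1b windows are near-identical. A run of 3 alternating units (GAANNTTCNNGAA or TTCNNGAANNTTC), which contains pairs, was found for 2 genes, Hspd1 and Hspe1 through the stretch they share, and in 0.466% of all windows. A CCAAT box was found for 4 genes, Hspa1a, Hspa1b, Hsph1 and Dnajb1, and in 33.8% of all windows. Dnajb1 had no pair in its windows. A match describes letters and not a bound site.

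The chaperones made up about 1% of all UMIs in both kinds of cells, and Hsp90ab1 supplied close to 50% of that. The 10 genes summed to 10434 CPM in A cells and 11376 CPM in B cells, or 1.04% and 1.14% of UMIs, a log2 ratio of B over A of 0.12 (0.12 to 0.13). That interval covers counting error alone, and the ratio moved beyond it, to 0.021 in cells of 2 to under 3% mitochondrial UMIs and to 0.23 once the median of all genes was subtracted. Hsp90ab1 accounted for 50.8% of the sum in A and 46.2% in B. Levels fell into a high tier of 5 genes near or above 1000 CPM (Hsp90ab1, Hspa8, Hspd1, Hspe1 and Hsp90aa1), Hsph1 near 127 CPM, and 4 genes under 50 CPM (Hspa1b, Dnajb1, Hspb1 and Hspa1a). UMIs counted 1 end of each transcript, so CPM were compared between genes without scaling for length.

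Between A and B cells, 3 of the 10 genes differed by at least 2-fold, and all 3 were higher in A: Hspa1a, Hspa1b and Hspb1. All were under 50 CPM, and the interval of Hspa1a spanned 2-fold. They are stress-inducible, but that trait does not set them apart. Inducible Dnajb1 (log2 0.10) and Hsph1 (-0.01) stayed near 0, and partly inducible Hsp90aa1 leaned to B (0.41). Over the 18657 genes with at least 1 UMI in each kind of cell, 17.9% were at least 2-fold higher in A and 13.4% at least 2-fold higher in B. Over the 4135 genes with a mean of 10 to under 40 CPM these shares were 11.4% and 7.06%. None of the 6 members with at least 50 CPM was past 2-fold, where 7.49% of 3897 such genes were higher in A and 6.54% higher in B. The members' median log2 ratio was 0.04, against -0.11 over the 3897 genes. This general shift matters for the smallest differences, because Hsp90ab1 and Hsph1 each lay at -0.01 before and 0.09 after the shift was subtracted.

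**Figure D1:**
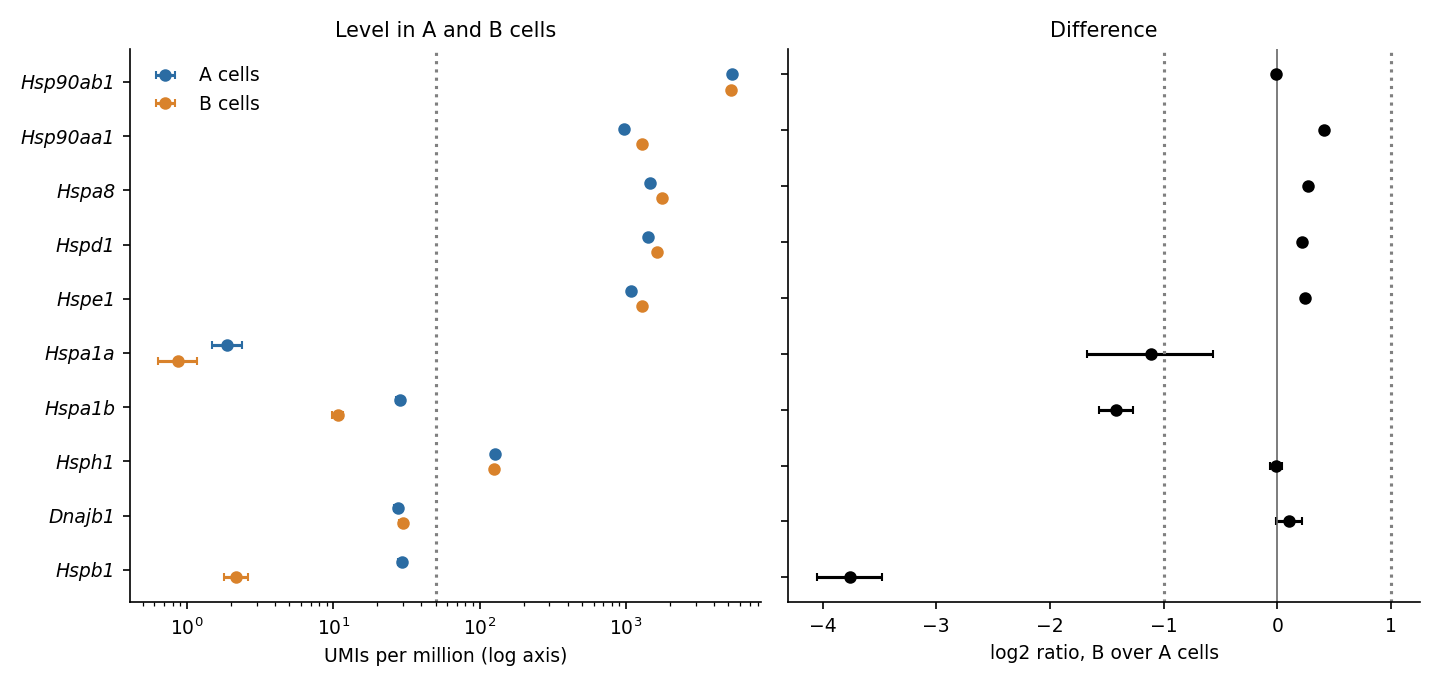
Left, CPM (log axis) of the 10 genes summed over 7816 A cells (blue) and 8936 B cells (orange) of 1 library; right, log2 ratio of B over A. Points are sums over cells, bars are 95% counting intervals, dotted lines mark 50 CPM and 2-fold. The high tier lies close to 0 on the right, while Hspa1a, Hspa1b and Hspb1 lie past 2-fold on the A side.

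The HSP90 genes differed from each other. Hsp90ab1, the constitutive isoform, stood at 5301 CPM (5279 to 5324) in A cells and 5251 (5232 to 5271) in B cells, a log2 ratio of -0.01 (-0.02 to -0.01). It was the gene of rank 8 among all features in A and rank 6 in B. Nearly every cell had it: after each cell was thinned to 3000 UMIs, 99.99% of A cells and of B cells kept at least 1 UMI, with a median of 16 in each. Hsp90aa1, the isoform with a stronger heat response, had 977 CPM in A and 1294 in B, a log2 ratio of 0.41 (0.39 to 0.42) and the most B-leaning value of the 10. Its UMIs were found in 92.4% of thinned A cells and 97.0% of thinned B cells.

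Hspa8, the constitutive HSP70 that also strips clathrin from vesicles, had 1451 CPM in A cells and 1751 in B cells, a log2 ratio of 0.27 (0.26 to 0.29). The chaperonin genes gave near-equal ratios. Hspd1, the barrel, had 1406 and 1630 CPM (log2 0.21, 0.20 to 0.23), and Hspe1, the lid, had 1084 and 1280 CPM (log2 0.24, 0.22 to 0.26). These 3 genes were each found in at least 94.5% of thinned A cells and 96.7% of thinned B cells. In both kinds of cells the order ran Hsp90ab1, Hspa8, Hspd1, with intervals that did not overlap. Hsp90aa1 and Hspe1 followed, with overlapping intervals in B (1285 to 1304 and 1270 to 1289 CPM) and separate ones in A.

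Hsph1 and Dnajb1, partners of HSP70, had ratios whose counting intervals spanned 0. Hsph1 had 127 CPM (124 to 131) in A and 126 (123 to 129) in B, a log2 ratio of -0.01 (-0.06 to 0.04), and was seen in 30.9% and 31.9% of thinned cells. Dnajb1 had 27.8 and 29.8 CPM, a log2 ratio of 0.10 (-0.01 to 0.21), and was seen in 8.16% and 8.30% of thinned cells. Other cell sets and scalings put Hsph1 from -0.16 to 0.09 and Dnajb1 from 0.08 to 0.31 on the log2 scale, wider than these intervals.

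Hspa1a and Hspa1b, which encode almost the same protein, were scarce and unequal. Hspa1b had 1151 UMIs in A cells and 564 in B cells, or 28.6 and 10.7 CPM, a log2 ratio of -1.42 (-1.57 to -1.27), 2.67-fold higher in A. Hspa1a had 76 and 46 UMIs, or 1.89 and 0.872 CPM, a log2 ratio of -1.11 (-1.68 to -0.57). Hspa1b was therefore the main inducible HSP70 transcript counted in both, while the upstream windows printed above were 98.8% identical. Thinned to equal depth, 8.17% of A cells and 3.02% of B cells had an Hspa1b UMI, and 0.540% and 0.238% an Hspa1a UMI. In the GENCODE M21 transcripts, 71.0% of 90-base windows of the Hspa1a coding sequence also occur in Hspa1b, but 0 of 721 windows after the stop codon do. How reads that match both were counted is not stated, so the split between them is uncertain, and their sum leans the same way.

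Hspb1 showed the widest gap. It had 1188 UMIs in A cells and 115 in B cells, or 29.5 CPM (27.8 to 31.2) and 2.18 CPM (1.80 to 2.62), a log2 ratio of -3.76 (-4.05 to -3.48), 13.5-fold higher in A. Thinned shares were 8.51% of A cells and 0.408% of B cells. In A cells the intervals of Hspb1, Hspa1b (27.0 to 30.3 CPM) and Dnajb1 (26.2 to 29.4 CPM) overlapped, so their order there is not settled. In B cells the order Dnajb1, Hspa1b, Hspb1, Hspa1a had separate intervals. In this library RNA free in the droplets can add UMIs to cells that do not make a gene. For 5 other genes low in B cells, picked after their values were seen, the B level was 2.90% (Tm4sf20), 3.18% (Twist1), 3.96% (S100g), 4.10% (Acta2) and 9.95% (Epcam) of the A level. Picked for a low B level, these 5 set no bound for free RNA, and its part in the members' counts was not tested. Hspb1 had 7.39% of its A level in B, Hspa1b 37.4% and Hspa1a 46.2%. Barcodes in neither group lay between A and B for these genes, with 20.9 CPM of Hspa1b, 1.64 of Hspa1a and 15.9 of Hspb1.

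Depth and mitochondrial share differ between A and B cells, so the ratios were also taken inside a narrow range of each, an analysis added after the data were seen. Among 3680 A and 4638 B cells of 4000 to under 6000 UMIs, the log2 ratios were -1.09 for Hspa1a, -1.47 for Hspa1b and -4.38 for Hspb1. Among 2663 A and 3253 B cells with 2 to under 3% mitochondrial UMIs, where the medians still differed (2.70% and 2.22%), Hspb1 remained past 2-fold at -3.13, but Hspa1b stood at -0.92 and Hspa1a at -0.44, so that 1 gene rather than 3 was past 2-fold, where 15.2% of 16488 genes were past it in A and 12.5% in B. Of genes with a mean of 10 to under 40 CPM in these cells, 9.41% and 7.48% were. The high tier moved less on the log2 scale there. Hsp90aa1 had 0.29, Hspe1 0.16, Hspa8 0.14, Hspd1 0.05 and Hsp90ab1 -0.10. Without A and B cells over 5% mitochondrial UMIs, under 5000 UMIs or under 2000 genes, 2 genes were past 2-fold, both in A, against 16.4% of 17655 genes in A and 12.6% in B.

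Spread from cell to cell was above counting error for the high tier, and could hardly be read for the scarcer genes. The Fano factor, the variance over the mean of thinned UMIs, is 1 where counting alone sets the spread, and lies near 1 for any scarce gene. Hsp90ab1 had 1.63 in A and 1.48 in B, Hspa8 1.36 and 1.30, Hspd1 1.34 and 1.26, Hsp90aa1 1.20 and 1.20, and Hspe1 1.16 and 1.16. Among the genes with at least 1000 CPM the median was 1.28 in A (140 genes) and 1.23 in B (152 genes). The factor rises with level and depth, so these values do not rank the members. As variance beyond counting over the squared mean, Hsp90ab1 had the lowest relative spread of the 5 (0.0393 in A and 0.0301 in B), and Hspa8 the highest (0.0827 and 0.0557). The 5 scarcer members had values from 0.995 to 1.15 in A and from 1.02 to 1.20 in B, highest for Hspb1. Genes of similar level gave medians of 1.01 in A and in B (10 to under 40 CPM) and of 1.03 in each (50 to under 200 CPM), so most of these values show little but their low counts. Hspb1 exceeded the 95th percentile of genes at its level, 1.07 in A (10 to under 40 CPM) and 1.07 in B (1 to under 10 CPM). Thinned Hsp90ab1 counts ran from 0 to 51 UMIs in A cells, with 10 and 22 at the 10th and 90th percentiles, and from 0 to 38 in B cells with the same percentiles.

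Co-expression was weak, and highest within the high tier. Over the 45 pairs of members, Pearson's r of log2(thinned UMIs + 1) had a median of 0.00585 over 7406 A cells and 0.00214 over 8827 B cells. Cells of 1 library share depth limits and free RNA, and at these counts a small r is no finding. Among the 10 pairs of the high tier, r ran from 0.0681 to 0.237 in A (median 0.126) and from -0.00508 to 0.133 in B (median 0.0768). Hsp90ab1 with Hspd1 gave the highest value in A (0.237, and 0.126 in B), and Hspd1 with Hspe1 the highest in B (0.133, and 0.151 in A). The r of Hsp90aa1 with Hsp90ab1, Hspa8 and Hspd1 was 0.155, 0.0681 and 0.109 in A, and 0.0636, -0.00508 and 0.00185 in B. In the 1899 A and 3331 B cells with at least 6000 UMIs, the high-tier medians were 0.0788 and 0.0645 when thinned to 3000 UMIs and 0.159 and 0.124 when thinned to 6000, a comparison added after the data were seen.

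The 5 scarcer genes showed almost no correlation with one another. Their 10 pairs had r from -0.0157 to 0.0310 in A and from -0.0170 to 0.0515 in B, and the largest value in each was Hspa1b with Hspb1. Among thinned A cells with an Hspa1b UMI, 11.6% (9.13 to 14.4%) also had an Hspb1 UMI, against 8.23% (7.59 to 8.91%) of those without. In B cells the shares were 1.87% (0.611 to 4.32%, 5 cells) and 0.362% (0.246 to 0.514%). Dnajb1 was seen in 8.26% of A cells with Hspa1b and 8.15% without, and in 8.61% and 8.29% of B cells. Hsph1 was seen in 28.8% of A cells with Hspa1b and 31.0% without.

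A joint rise of the inducible genes in a subset of cells was not seen at this depth. The summed thinned UMIs of Hspa1a, Hspa1b, Dnajb1 and Hsph1 were 0 in 57.8% of A cells and 60.2% of B cells. A sum of 5 or more was reached by 4 A cells (0.0540%, 0.0147 to 0.138%) and 3 B cells (0.0340%, 0.00701 to 0.0993%), and the highest sum was 6. The Fano factor of the sum was 1.04 in A and 1.01 in B. Hsph1 gave most of the sum, with a mean of 0.377 of 0.557 UMIs in A and 0.384 of 0.506 in B. The sum could therefore hardly show a joint rise of the scarcer genes. A single B cell of 2549 UMIs, too shallow to be thinned, held 20 UMIs of Hsph1 and 44 of Hspd1.

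**Figure D2:**
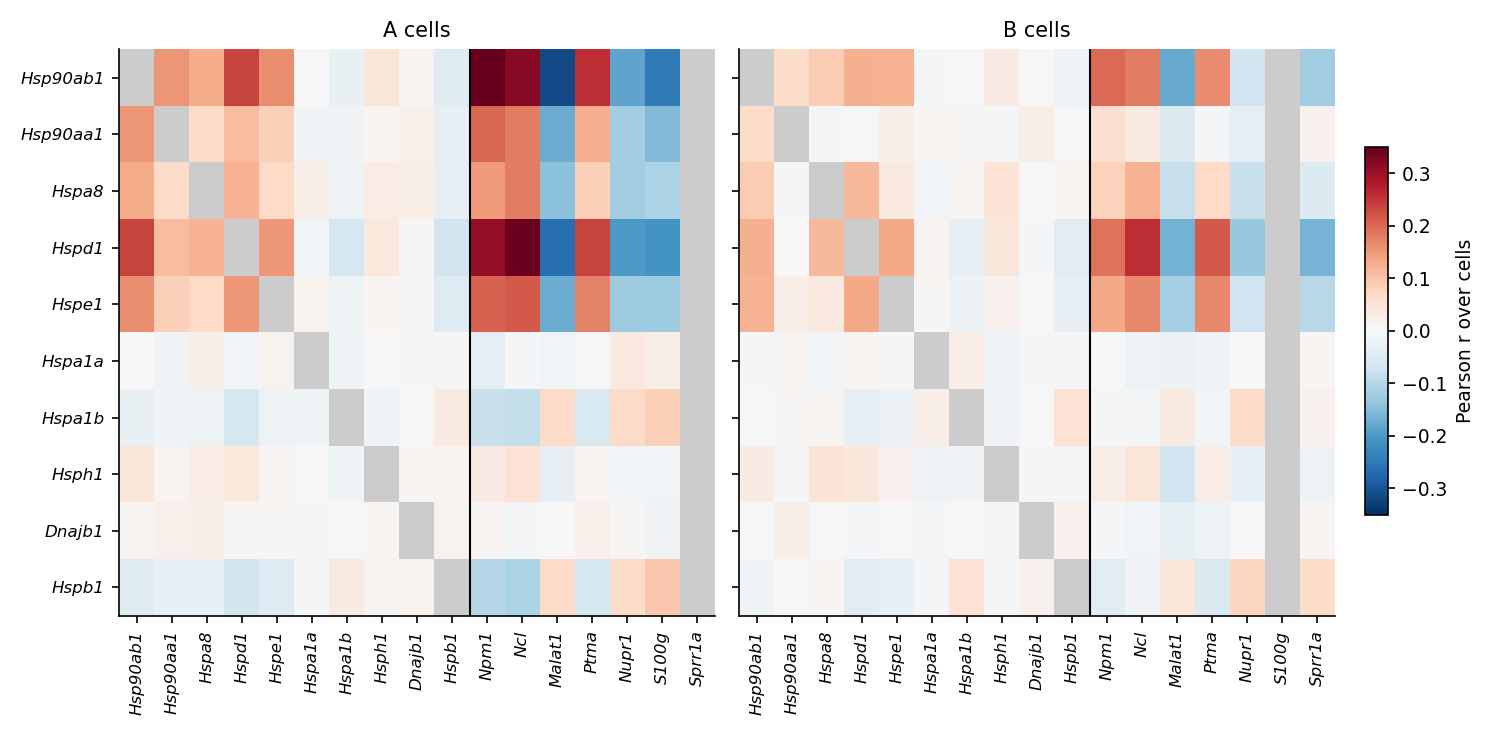
Pearson's r over thinned A cells (left, 7406 cells) and B cells (right, 8827 cells) between each of the 10 chaperone genes (rows) and the same genes or 7 others (columns right of the line); red is positive, blue negative. Gray marks a gene with itself and genes under 50 CPM in those cells (Sprr1a in A, S100g in B). In A cells colour is strongest in the 5 rows of the high tier; in B cells it is strongest in the Hsp90ab1, Hspd1 and Hspe1 rows, and the Hsp90aa1 row is pale.

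The genes whose counts most resembled those of the high tier were often Npm1 and Ncl, and in part other members. By the rule of the 3 highest r among genes with at least 50 CPM, Npm1 (nucleophosmin, a nucleolar histone chaperone) led for Hsp90ab1 with r of 0.350 in A and 0.199 in B. Ncl (nucleolin, needed for ribosomal RNA synthesis) led for Hspd1 with 0.342 and 0.258. Npm1 and Ncl were both among the 3 highest for 5 of 5 high-tier genes in A and 3 of 5 in B (Hsp90ab1, Hspd1 and Hspe1), and in A Hsp90ab1 came after them for Hsp90aa1, Hspa8 and Hspd1. In B, Ptma (prothymosin alpha) led for Hspe1 with 0.169. Fth1, the ferritin heavy chain, led for Hsp90aa1 in B with 0.0710, followed by Hsp90ab1 with 0.0636, and Hspd1 came after Ncl for Hspa8 with 0.113. For comparison, the 99th percentile over all genes for Hsp90ab1 was 0.162 in A and 0.0737 in B. Malat1, a nuclear noncoding RNA, had the lowest r with Hsp90ab1 in both (-0.316 and -0.176). With Npm1 and Ncl held fixed, the high-tier median r was 0.0584 in A and 0.0570 in B, but both genes were picked for their high r with these members in the same cells, which by itself lowers the value.

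Hspa1b and Hspb1 had other neighbours. In A cells the highest r with Hspa1b belonged to Ranbp3l (0.112), 2210408F21Rik (0.0847) and S100g (0.0832), and the highest with Hspb1 to S100g (0.0954), Lgals4 (0.0752) and Jund (0.0690). In B cells Nupr1, a stress-responsive chromatin protein, led for both (0.0659 and 0.0757). Ncl had the lowest r with both in A (-0.0828 and -0.111). Neighbours of Hspa1a, Hsph1 and Dnajb1 had r of at most 0.0704.

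The high tier and the Hspa1b and Hspb1 counts differed in opposite directions between expression states inside A cells. States were defined by genes outside the set, with the same terms of at least 2 UMIs and 3 times the other sum. S100g, one of these genes, was already among those with the highest r with Hspa1b and Hspb1 and the lowest with Hsp90ab1 (-0.246) in the same cells, so the contrast restates that relation and is no separate support. In 1161 A cells marked by Tnc and Acta2, against 1452 marked by S100g, Epcam and Tm4sf20, all 5 high-tier genes were higher. Hsp90ab1 had 5408 against 4638 CPM (log2 0.22, 0.20 to 0.24) and Hsp90aa1 1052 against 837 (0.33, 0.28 to 0.38). Hspa8, Hspd1 and Hspe1 had log2 differences of 0.23, 0.26 and 0.15. Under a stricter rule (4 UMIs and 5 times, 508 and 647 cells) Hsp90aa1 had 0.51, Hspd1 0.41 and Hspe1 0.29. Hspa1b was lower in the Tnc and Acta2 cells, at 22.8 against 47.7 CPM (-1.06, -1.35 to -0.79), and so was Hspb1, at 26.5 against 44.3 CPM (-0.74, -1.01 to -0.47). Npm1 stood at 3975 and 2867 CPM in the same cells, and the median mitochondrial share was 3.06% and 3.45%. The part of either in the differences was not tested.

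In B cells the contrast between 568 cells marked by Krt14 and Sprr1a, squamous epithelial genes, and 4468 marked by Areg and Cftr gave a mixed picture for the high tier. Hspd1 was lower in the Krt14 and Sprr1a cells, at 1302 against 1693 CPM (log2 -0.38, -0.42 to -0.34), as were Hspe1 (-0.21), Hsp90ab1 (-0.13) and Hspa8 (-0.09), whereas the interval of Hsp90aa1 spanned 0 (0.03, -0.01 to 0.08). Sprr1a had already shown a low r with Hspd1 (-0.162), Hsp90ab1 (-0.122) and Hspe1 (-0.0960). It was also among the 3 highest for Hspb1 (0.0639), so for these genes the contrast is likewise no separate support. Hsph1 was lower too, at 107 against 133 CPM (-0.32, -0.47 to -0.17). Hspa1b was higher, at 14.9 against 9.99 CPM (0.58, 0.13 to 1.00), and Hspb1 was higher, at 7.18 against 1.67 CPM (2.11, 1.35 to 2.83), on 26 and 45 UMIs. Under the stricter rule (234 and 2045 cells) 2 of these readings changed: Hsp90aa1 was higher in the Krt14 and Sprr1a cells (0.11, 0.05 to 0.18), and the interval of Hspa1b spanned 0 (0.63, -0.05 to 1.25). Hsp90ab1 had -0.22 and Hspd1 -0.58 there. Npm1 stood at 3843 and 4591 CPM under the first rule.

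**Figure D3:**
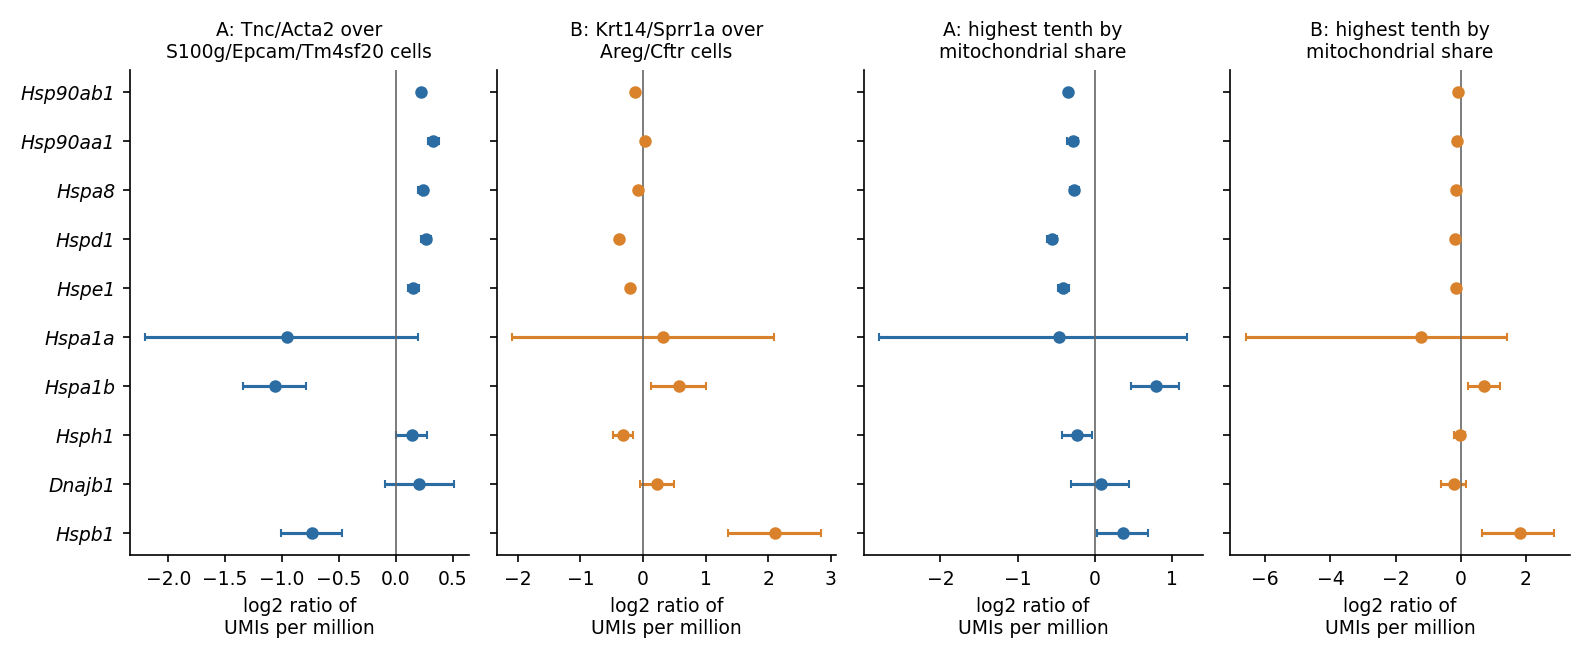
Log2 ratio of the CPM of each chaperone gene in 4 contrasts inside A cells (blue) or B cells (orange), each panel with its own axis: 2 contrasts of expression states, then the 10% of cells with the highest mitochondrial share over the rest. Points are ratios of summed counts and bars are 95% counting intervals; Hspa1b and Hspb1 lie on the side opposite to Hspd1 in all 4 panels.

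Mitochondrial share also set the high tier apart from Hspa1b and Hspb1. In the 741 A cells of the highest 10% (median 4.53% of thinned UMIs, against 3.10% in the other 6665), the high tier was lower by 0.27 (Hspa8) to 0.56 (Hspd1) on the log2 scale, while Hspa1b was higher at 47.2 against 27.3 CPM (0.79, 0.48 to 1.10) and Hspb1 at 39.6 against 30.8 CPM (0.36, 0.02 to 0.69). In B cells the high tier was lower by 0.09 (Hsp90ab1) to 0.19 (Hspd1). Hspa1b was higher at 16.2 against 9.86 CPM (0.72, 0.21 to 1.19), and Hspb1 at 4.15 against 1.17 CPM, on 11 UMIs in the top 10%.

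Along cell-cycle, immediate early and unfolded protein scores the high tier differed by log2 values from -0.20 to 0.12 in the top 10% of cells, and some scarcer members by more. In the 10% of A cells highest in a G2/M list, Hsph1 was lower at 102 against 128 CPM (log2 -0.33, -0.53 to -0.13) and Hsp90ab1 lower by 0.17. In B cells Hsph1 had -0.078 (-0.25 to 0.088) in the top 10% and -0.19 (-0.32 to -0.06) in the top 20%. Hsp90ab1 had -0.096 in the top 10% of B cells. In the 10% of B cells highest in an S phase list, Hsph1 was higher at 165 against 124 CPM (0.41, 0.26 to 0.55), but in A cells the interval spanned 0 (-0.0037, -0.19 to 0.18). In A cells highest in an immediate early list, Hspd1 was lower (-0.20, and -0.16 in the top 20%), as in B cells (-0.17). Dnajb1 (0.43, 0.08 to 0.76) and Hspb1 (0.51, 0.18 to 0.82) had positive values in the top 10%, but their intervals spanned 0 in the top 20% (0.18, -0.10 to 0.46, and 0.15, -0.11 to 0.42) and in B cells (0.11, -0.24 to 0.44, and 0.98, -0.45 to 2.18). That score is coarse, and 421 A cells tied at the lowest top score of 3 fell among the rest. For a list of ATF4 and unfolded protein targets in A cells, Hspa1b had -0.51 (-0.97 to -0.08) in the top 10% and -0.23 (-0.54 to 0.06) in the top 20%, where the interval spanned 0, and in B cells 0.12 (-0.48 to 0.67) in the top 10%.

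In the rest of the chaperone system the abundant genes stayed within 2-fold. In 9 lists of 108 further genes, 68 had at least 50 CPM, and 0 of these were past 2-fold in either direction, against 7.49% (A) and 6.54% (B) of all such genes. Counted as the members were, over the 101 with at least 1 UMI in each, 5 were past 2-fold in A and 2 in B. All 7 were among the 33 under 50 CPM, or 15.2% in A and 6.06% in B of these, against 20.6% and 15.2% of the 14760 genes under 50 CPM in both and 11.4% and 7.06% of genes of 10 to under 40 CPM. They were Hspb6, Cryab, Dnajb4, Pih1d1 and Hsf2bp in A, and Dnajb2 and Hsf5 in B. Among cytosolic HSP90 partners (13 of 19 with at least 50 CPM, median log2 -0.06), Ptges3 (p23) had 678 and 698 CPM in A and B. Of the 13, 7 were higher in A, but with the median of all genes subtracted 7 were higher in B. Fkbp4, an immunophilin partner of HSP90, leaned to A with 243 and 182 CPM (-0.42). Stip1, the adaptor between HSP70 and HSP90 that was picked here after its values were seen, leaned to B with 158 and 244 CPM (0.63). Among J-domain proteins (10 of 15, median 0.06), Dnaja1 had 360 and 386 CPM and Dnaja2, a related cochaperone of HSP70, 319 and 240 (-0.41). In the list of other HSP70 and HSP110 genes (4 of 8, median -0.03), Hspa4, an HSP110 relative, had 477 and 544 CPM, and Hspa14 80.6 and 52.1 (-0.63). In that of nucleotide exchange factors and partners of HSP70 (5 of 10, median -0.05), St13, a cochaperone, had 329.7 and 344 CPM. Stub1, the ubiquitin ligase CHIP, leaned to A with 269 and 175 (-0.62). Of the 5, 3 were higher in A, but with the median of all genes subtracted 3 were higher in B.

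The CCT ring and prefoldin, which fold actin and tubulin, leaned slightly to B, with 9 of 13 genes higher there (median 0.10). Cct8 had 574 and 500 CPM and Cct2 486 and 568. Chaperones of the endoplasmic reticulum leaned the same way in 10 of 13 genes (median 0.16), with Hsp90b1 at 962 and 1212 CPM and Hspa5 at 709 and 790. Mitochondrial chaperones and proteases leaned to A in 7 of 9 (median -0.27), but Hspa9, the mitochondrial HSP70 that works ahead of the chaperonin, had 251 and 346 CPM (0.46). With the median of all genes subtracted, the counts higher in B were 9, 12 and 2 of these 3 lists.

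Small heat shock proteins other than Hspb1 were scarce. Hspb6 had 33.5 CPM in A and 6.90 in B, and Cryab 3.10 and 0.796, so both leaned to A as Hspb1 did. Cryaa, Hspb3, Hspb7, Hspb8 and Hspb9 had no UMI in either. Hsf1, the main heat shock factor, had 29.0 and 31.6 CPM, and Hsf2 17.6 and 21.6. By comparison, 4 of the 5 immediate early genes with at least 50 CPM were past 2-fold in B, Junb (1.91), Ier3 (1.57), Klf4 (2.00) and Klf6 (1.21 on the log2 scale), and 0 in A, against 6.54% and 7.49% of all 3897 genes. Of the 26 G2/M genes with at least 50 CPM, 1 (Bub1b, -1.13) was past 2-fold in A, under the 7.49% of all genes. Of 19 S phase and 4 ATF4 and unfolded protein genes, 0 were past 2-fold in either direction.

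**Figure D4:**
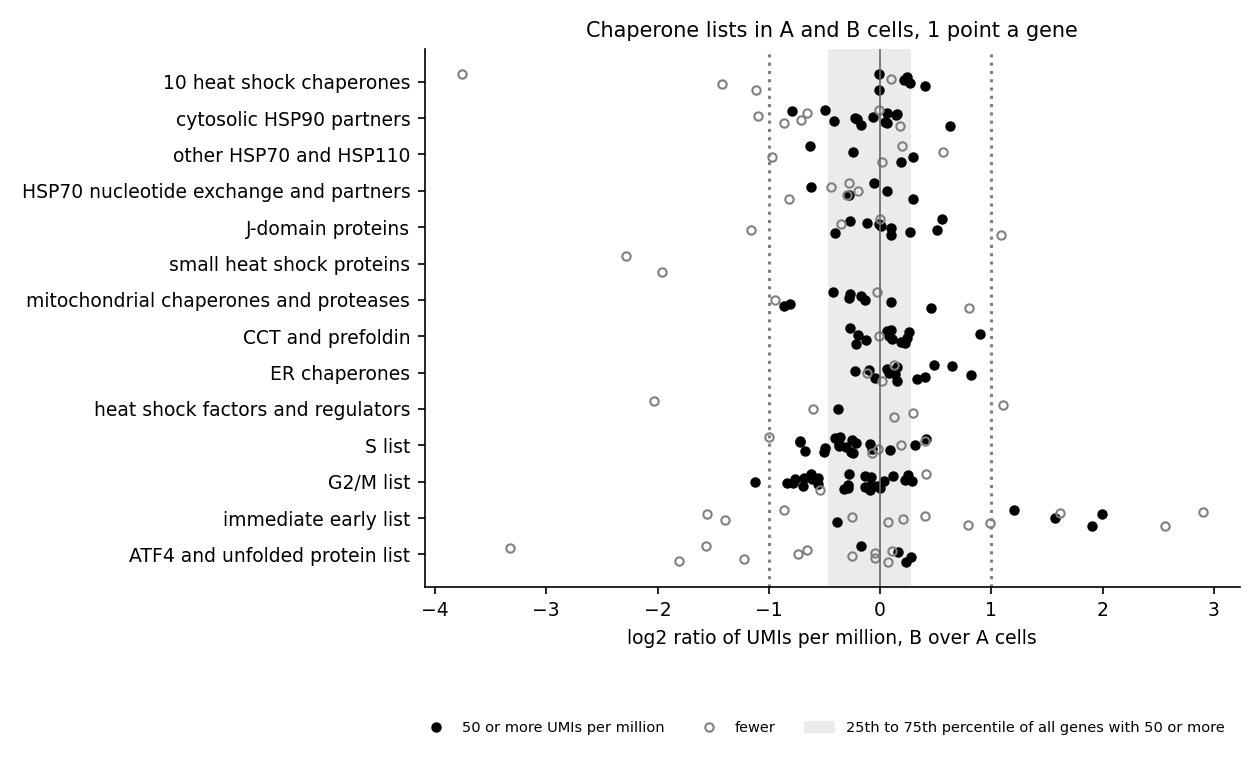
Log2 ratio of CPM, B over A cells, for the 10 heat shock chaperones and for 9 further chaperone lists and 4 lists of cell cycle, immediate early and unfolded protein genes, 1 point a gene. Filled points have at least 50 CPM in either kind of cell, open points fewer; the gray band is the 25th to 75th percentile of the 3897 genes with at least 50 CPM, dotted lines mark 2-fold. No filled point of a chaperone list lies past 2-fold.

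Counts near the 3′ end can be shared with near-identical copies. In GENCODE M21, 79.8% of 90-base windows in the last 500 bases of the Hspa8 transcript also occur in 8 other annotated genes, 36.0% for Hspe1 (1 gene) and 7.06% for Hspb1 (Hsp25-ps1). The other 7 members shared 0 windows. Levels of Hspa8 and Hspe1 could therefore be understated, depending on how the authors' counting treated reads with more than 1 match.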

How the data were processed

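The members and lists were chosen with earlier results of these data known. The deposited matrix holds raw UMI counts per gene and barcode, written by Cell Ranger 8.0.1 per the file headers, on GRCm39 per the submitters' processing notes. Annotation, cell calling and the handling of multiply matched reads are not given in the sources used here. Counts were summed over A or B cells and divided by all their UMIs (CPM), with exact Poisson intervals. Ratios have exact conditional binomial intervals and shares Clopper-Pearson intervals. PCR and sampling of cells beyond the UMIs are not covered. For shares, spread and r, each cell was thinned to 3000 UMIs without replacement, which left out 410 A and 109 B cells. Doublets were kept. Scrublet in scanpy 1.11.5 marked 778 of 21361 barcodes (3.64%), 146 of them A and 208 B, and they were removed in an alternative. The functions were tested on simulated data. Genes named were all members, the 4 most abundant of each chaperone list, those past 2-fold with at least 50 CPM, and the 3 highest r of each member. Not every gene of that rule is printed. The immediate early genes, Hsf1, Hsf2 and Malat1, the list genes under 50 CPM, single marker genes and the genes with lowest r were named after their values were seen. Other alternatives were loose and strict cell filters, a stricter marker rule, other scalings, minimums and thinning depths.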

Additional observations from a re-analysis of the deposited data

Results flagged for a closer look

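Of the 21361 barcodes, 5 had 10 or more UMIs of Hspa1a, Hspa1b, Dnajb1 and Hsph1 together, and 2 had 15 or more. These barcodes were picked after their values were seen, and none of the first 3 was marked as a doublet.

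A signal outside the compared cells was 1 barcode in neither A nor B with 14 UMIs of Hspa1b (7.65 to 23.5) of 4923 UMIs in all, where the average profile gives 0.0931 at that depth. It had 1 UMI of Hspa1a, 2 of Dnajb1, 1 of Hsph1 and 0 of Hspb1. It had 15 UMIs of Hspa5, where the average gives 3.71, and 0 UMIs of all 11 marker genes.

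The highest sum belonged to a B cell of 2549 UMIs, with 3 UMIs of B markers and 0 of A markers. It held 20 UMIs of Hsph1 where the B profile gives 0.322, 44 of Hspd1 against 4.15, 27 of Hsp90aa1 against 3.30, 24 of Hspe1 against 3.26, 30 of Hsp90ab1 against 13.4 and 4 of Hspb1 against 0.00555. Dnaja1 had 14 UMIs against 0.985 and Cacybp 17 against 1.18. Hspa1a, Hspa1b, Dnajb1 and Hspa8 had 0, where the B profile gives 4.46 for Hspa8. With 1 such barcode the cause was not tested. Leaving it out moved no member's log2 ratio beyond its counting interval.

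The 817 barcodes that the cell filter removed (median 1087 UMIs, 11.1% mitochondrial) also held member transcripts above the 3.19 CPM that 3 counts would give. The levels were 3368 CPM of Hsp90ab1, 1249 of Hspa8, 1112 of Hspd1, 737 of Hsp90aa1 and 694 of Hspe1, each under its level in A and in B cells. Hsph1 stood at 112 CPM and Dnajb1 at 26.6. Hspa1b (20.2 CPM) and Hspb1 (16.0 CPM) lay between their A and B levels, and Hspa1a had 0 UMIs (exact interval 0 to 3.92 CPM).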

How the results depend on the processing

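The summed log2 ratio of B over A, 0.12 as reported, was 0.076 under the strict cell filter, 0.11 without mitochondrial and ribosomal protein genes, 0.15 as a mean of per-cell CPM, 0.23 centred on the median of all genes, 0.16 in cells of 4000 to under 6000 UMIs and 0.021 in cells of 2 to under 3% mitochondrial UMIs. The members' median ratio was 0.15 when centred and 0.15 in cells of 4000 to under 6000 UMIs. The count of members past 2-fold was 1 in the mitochondrial range. The median r over 45 pairs was 0.0248 in A cells of at least 6000 UMIs thinned to 6000, and in B cells 0.00919 (strict filter), 0.00728 (stricter marker rule), 0.00804 (second seed) and 0.0134 (not thinned). Hsp90ab1 changed sign to 0.092 when centred, 0.0043 as a mean of per-cell CPM and 0.034 in cells of 4000 to under 6000 UMIs. The cause was not tested.

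Hspb1 ranged from -4.38 to -3.13, Hspa1b from -1.67 to -0.92 and Hspa1a from -1.42 to -0.44 over 11 settings, the reported one included, and were higher in A in each. With fewer than 50 UMIs in B cells, Hspa1a is limited by depth.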
